A study of Mus musculus with 9 samples.

Results

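The genes of distal chromosome 16 were examined in RAW264, a mouse macrophage-like cell line, in 2 lines mutated in the zinc finger gene Zscan10 and in unmutated Control cells. A gene was taken when its lowest start in the deposited table lay above position 70000000 of chromosome 16 (mm10) and its normalised read value was at least 10 in at least 3 of 9 libraries. Of 167 listed genes in that region, 62 met the level filter, 86 had 0 reads in every library and 19 had reads but stayed below the filter. Setting aside 9 of the 62 by name (Ifnar1, Ifnar2, Ifngr2, Il10rb, Rcan1, Mx1, Mx2, Atp5o and Atp5j) left 53 genes, out of 9564 that met the filter in the whole table. Another 255 genes met it on chromosome 16 up to 70 Mb. The region was chosen by the normalised reads themselves, since its genes were seen to be lower in KO #1 than in Control, so values of KO #1 are given as a description, with no test read from them. KO #2 was not used in that choice and could be tested, although it is set against the same Control libraries.

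KO #1 (labelled as mutated in exon 2 of Zscan10), KO #2 (labelled as mutated in exon 5) and Control each had 3 libraries. The raw-read names of the KO libraries carry the opposite exon numbers, so the exon assignment cannot be told apart from its reverse. KO cells were made by electroporating a plasmid with Cas9, a guide RNA and the ZsGreen1 reporter, followed by sorting of single cells. Whether Control cells went through the same steps is not given in the sources used here, and each KO group stands for 1 line. All cultures were grown without RANKL, the cytokine that turns these cells into bone-resorbing osteoclasts. Depth was 1821703 to 2458539 recovered reads per library. Zscan10 had 0 reads in all 9 libraries, so its level checks no label. Of 9 macrophage marker genes 7 were detected, with summed values of 41087 to 42162 in KO #1, 36383 to 37958 in KO #2 and 28122 to 29188 in Control. Such a sum can be set by 1 highly read gene and does not show each marker. Summed markers of B cells, T cells, fibroblasts and epithelial cells stayed at or under 1.18 in every library. Nothing in the labels tells whether the libraries of 1 group were grown as independent cultures, so every p-value here reflects library-to-library spread, which may be technical.

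The distal end of mouse chromosome 16 holds the mouse counterparts of many genes of human chromosome 21, and extra copies of this end are used to model Down syndrome in mice. Its genes do varied jobs. They include transcription factors of blood cells, a subunit of a ring-shaped chaperonin, an enzyme of purine synthesis, a superoxide dismutase and the amyloid precursor protein. Some are relatives, such as the carbonyl reductases Cbr1 and Cbr3. The genes described here were taken by position and level, not by function.

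Of the 53 genes, 46 lie from Hspa13 to Brwd1, and all 46 had lower means in KO #1 than in Control, most by a similar factor. Outside this stretch Wrb, Prdm15 and Zbtb21 also had lower means in KO #1, at 0.939, 0.898 and 0.906 times Control. Counted with the genes set aside by name, the stretch from Hspa13 to Brwd1 held 53 tested genes. Their ratios to Control in KO #1 ran from 0.0177 to 1.34, so the run of lowered genes was not unbroken. Summed over these 46 genes, which run from Hspa13 to Brwd1, the libraries held 5126, 5129 and 5229 normalised reads in KO #1, 9565, 9634 and 9619 in KO #2 and 9107, 8947 and 9026 in Control. The KO #1 libraries stood apart from all others, and the KO #2 libraries lay just above Control. The means were 5161 ± 58.9 in KO #1, 9606 ± 36.5 in KO #2 and 9027 ± 80.3 in Control (SD, n = 3 each), or 0.572 times Control in KO #1 and 1.06 times in KO #2. As a share of all reads of a library, the 46 genes took 0.234% to 0.238% in KO #1, 0.440% to 0.447% in KO #2 and 0.420% to 0.425% in Control. In bulk RNA, fewer cells that express a gene and less of its RNA per cell cannot be told apart.

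**Figure D1:**
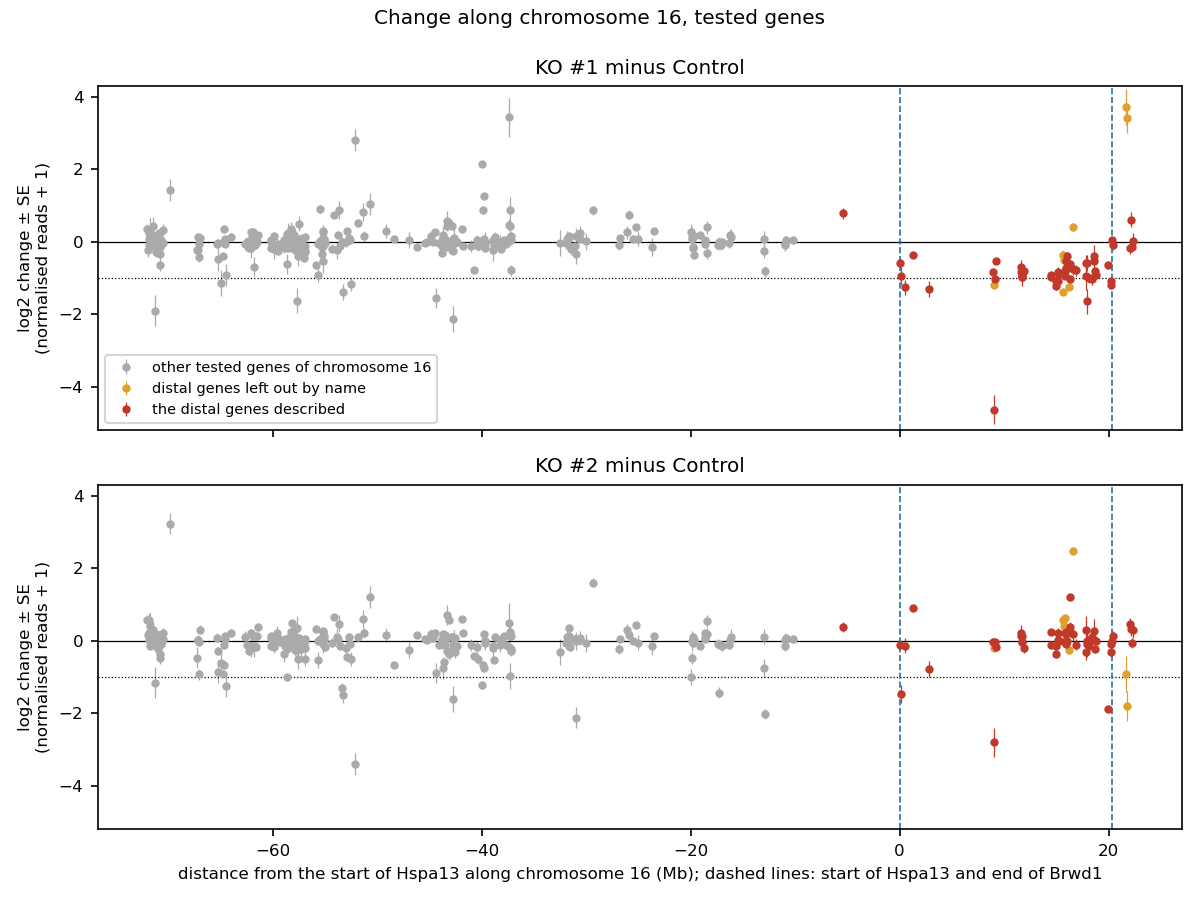
Log2 change of each tested gene of chromosome 16 (vertical axis, log2 of normalised reads + 1, bars ± SE from the fit of all 9 libraries) against its distance from the start of Hspa13 in Mb (horizontal axis), for KO #1 minus Control above and KO #2 minus Control below. Grey points are the other tested genes, orange the 9 left out by name and red the 53 described, and a dotted line marks a log2 change of -1. In the upper panel the 46 red genes between the dashed lines had a median of -0.89, while the genes to the left of the lines had a median of 0.0058. In the lower panel the same 46 genes had a median of -0.027.

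The counts over KO #1 below restate how the region was chosen and are given only to size it. Counted gene by gene, 43 of the 53 were called lower in KO #1 than in Control (limma adjusted p under 0.05), beside 10.2% of all tested genes called lower. Another 2, Gbe1 and C2cd2, were called higher, beside 10.5% called higher. The median log2 change of the 53 was -0.82, beside -0.0066 over all tested genes. For 44 of the 53 every KO #1 library lay below every Control library, beside 16.5% of all tested genes, and for 2 every KO #1 library lay above, beside 16.4%. On chromosome 16 up to 70 Mb, 24 of 255 genes were lower and 34 higher, with a median of 0.0047. Set against KO #2 in place of Control, 41 of the 53 were lower in KO #1, beside 12.9% of all tested genes, 2 were higher, beside 13.5%, and the median was -0.86, where 26.5% of all tested genes were called in either direction. That comparison shares the KO #1 libraries and is a description too.

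The start of the lowered stretch was located by dividing the 317 tested genes of chromosome 16, in order of position, at the place where the summed absolute deviation from the medians on each side was smallest. The 9 genes left out by name were kept for this step. The division fell between Gbe1, which codes for the glycogen branching enzyme and ends at 70569720, and Hspa13, a chaperone of the HSP70 family that begins at 75755191. The last tested genes before the division were Zfp654 at 0.963 times Control, Cggbp1 at 1.03 times, Chmp2b at 1.04 times and Gbe1 at 1.74 times. The next genes inside it were Hspa13 at 0.668 times, Samsn1 at 0.550 times, Nrip1 at 0.408 times and Usp25 at 0.777 times. No tested gene lies in the 5185 kb between Gbe1 and Hspa13. Rbm11, which starts at 75.592891 Mb, had 1 read in each group, and the axon guidance receptors Robo1 and Robo2 had 0 reads in every library. The start can therefore be placed no more finely than this gap.

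Gbe1 had 85.5, 72.9 and 96.5 normalised reads in KO #1, against 41.0, 53.0 and 52.5 in Control. Hspa13 had 74.2, 66.9 and 65.0 normalised reads in KO #1, against 111, 96.2 and 102 in Control. All 3 KO #1 libraries were above Control for Gbe1 and below it for Hspa13, with no overlap in either gene.

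The same start was found with each KO #1 library on its own against the Control mean. With KO #2 in place of Control it moved past Hspa13 and Samsn1 to Nrip1 at 76290862. Samsn1 was itself low in KO #2. Dividing the chromosome at Hspa13 reduced the summed deviation by 19.9%, while the best division of any other chromosome reduced it by 0.19% to 1.43%. On chromosome 12 the median of all tested genes was -0.28, and on the remaining chromosomes apart from 16 the medians lay between -0.012 and 0.022. In KO #2 minus Control the median of chromosome 12 was 0.28, on the other side of 0. In KO #2 minus Control the best division of chromosome 16 lay near its other end, at 4.48 Mb, and reduced the deviation by 1.12%.

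A further division on the distal side placed the end of the stretch between Brwd1 and Hmgn1, which are 39.2 kb apart. Brwd1, a bromodomain protein that binds acetylated histones, had 90.7, 84.8 and 103 normalised reads in KO #1 and 189, 211 and 191 in Control. Hmgn1, a small protein that binds nucleosomes, had 655, 659 and 636 in KO #1 and 605, 598 and 670.3 in Control. The libraries of the 2 groups did not overlap for Brwd1, while for Hmgn1 the KO #1 values lay within the Control range. Hmgn1 has processed copies elsewhere in the genome, and how the authors' counting treated reads shared with them is not given in the sources used here. The bases upstream of these neighbours are shown because the edge runs between them. Each run ends at the base before the RefSeq start of the gene (GRCm38.p6, the patch of the build named mm10), reads 5′ to 3′ on the minus strand, and has in capitals the letters CCAAT or their reverse complement ATTGG. Brwd1 lies at chr16:96082429-96082678 and Hmgn1 at chr16:96127726-96127975.
Brwd1: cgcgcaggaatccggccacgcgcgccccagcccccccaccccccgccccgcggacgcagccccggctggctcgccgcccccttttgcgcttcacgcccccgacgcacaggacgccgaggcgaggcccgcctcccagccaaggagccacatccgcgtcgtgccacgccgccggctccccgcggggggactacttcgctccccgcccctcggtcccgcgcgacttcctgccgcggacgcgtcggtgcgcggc
Hmgn1: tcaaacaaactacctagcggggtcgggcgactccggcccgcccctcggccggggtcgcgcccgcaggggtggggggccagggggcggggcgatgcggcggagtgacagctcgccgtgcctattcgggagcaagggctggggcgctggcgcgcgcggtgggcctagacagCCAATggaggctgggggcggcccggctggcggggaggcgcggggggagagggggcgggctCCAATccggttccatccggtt
The run of Brwd1 held 0 such matches and that of Hmgn1 held 2.

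Beyond Hmgn1, 4 of the 5 remaining genes stood at 0.898 to 1.03 times Control in KO #1, and C2cd2 stood higher. Wrb, a receptor for tail-anchored membrane proteins, was at 0.939 times Control in KO #1, the zinc finger genes Prdm15 and Zbtb21 were at 0.898 and 0.906 times, and A630089N07Rik was at 1.03 times. C2cd2, a C2-domain gene, had 40.2, 39.9 and 44.7 normalised reads in KO #1, against 25.3, 31.4 and 24.1 in Control, so every KO #1 library was higher. With Hmgn1 these make 6 genes, whose log2 changes lay between -0.16 and 0.62. Their summed value was 1.03 times Control in KO #1 and in KO #2. Hmgn1 alone gave 650 of the 900 normalised reads of that sum in KO #1, so the sum says little about the others. The dividing rule took its end from medians, and with squared deviations it placed the end after Wrb, at 96157852, in place of Brwd1.

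Within the stretch the median ratio of KO #1 to Control means was 0.548, and the middle of the genes, from the lower to the upper quartile, spanned 0.491 to 0.613. Before the stretch the same quartiles were 0.916 and 1.11. The ratio ranged from 0.0177 for Jam2 to 0.796 for Pigp. Among the 28 genes with a Control mean of at least 100 normalised reads, where counting error is smallest, all ratios were under 1, the median was 0.539, and 18 lay between 0.45 and 0.6. The 53 genes met the filter at very different levels. In Control, Sod1 had 1002 normalised reads per kilobase of exon, Cct8 had 611 and Hmgn1 had 520.2, while Dopey2 had 3.95, C2cd2 had 4.11 and Setd4 had 4.78.

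The size of the reduction followed none of 4 simple properties closely. Across the 46 genes, which share the same libraries, Spearman's rho with the log2 ratio was 0.139 for the Control level, 0.0997 for exon length, 0.0562 for position and 0.111 for the number of exons. Of the 46, 33 had a log2 change within 2 SE of the median of the stretch, 8 were less lowered and 5 were more lowered. Less lowered were Hspa13, Usp25, App, Son, Itsn1, Slc5a3, Ttc3 and Ets2, at 0.651 to 0.777 times Control. More lowered were Cct8 at 0.508, Psmg1 at 0.443, Urb1 at 0.431, Cbr3 at 0.317 and Jam2 at 0.0177 times Control. Because each gene was set against its own SE, these lists favour well-read genes and do not rank the ratios. Nrip1 at 0.408, D16Ertd472e at 0.401 and Pigp at 0.796 times Control, with larger SE, lay within 2 SE.

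**Figure D2:**
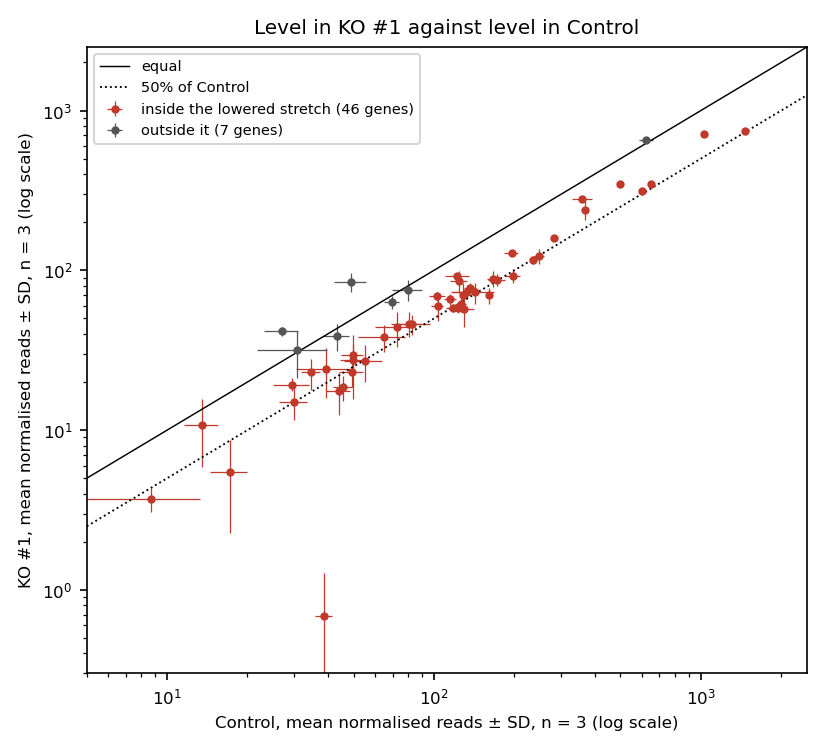
Mean normalised reads of each of the 53 genes in KO #1 (vertical axis, log scale) against its mean in Control (horizontal axis, log scale), with bars of ± SD over 3 libraries. The solid line marks equal levels and the dotted line a KO #1 level that is 50% of Control. The 46 genes of the stretch lie below the solid line at every level, with Jam2 far below at 0.682 in KO #1 against 38.6 in Control, and the 7 others lie near or above it.

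Of the genes of the stretch, 18 stood in the role list of transcription, chromatin or DNA replication, which was drawn loosely. In KO #1 their median ratio to Control was 0.511. Gabpa, an ETS-family factor that drives nuclear genes for mitochondria, had 116, 109 and 122 normalised reads in KO #1, 198, 251 and 237 in KO #2 and 231, 237 and 236 in Control. Runx1, a regulator of blood cell development, had 55.7, 42.9 and 40.6 in KO #1, 73.6, 75.6 and 72.0 in KO #2 and 69.8, 84.4 and 87.1 in Control. Chaf1b, a subunit of the complex that places histones on newly copied DNA, had 60.8, 58.9 and 54.9 in KO #1, 123, 117 and 117 in KO #2 and 111, 118 and 126 in Control. In all 3 genes every KO #1 library lay below every other library, while KO #2 and Control libraries overlapped. The heme-sensitive repressor Bach1 was at 0.578 times Control, the nuclear receptor corepressor Nrip1 at 0.408 and the histone deubiquitinase Usp16 at 0.512. Usp16 shares exon sequence with Cct8 on the opposite strand, as do Gabpa with Atp5j, Pigp with Ttc3, Synj1 with 4930404I05Rik and Cryzl1 with Gm10785. The library kit kept strand while the strand setting of the counting is not given in the sources used here. The kinase gene Dyrk1a was at 0.533 times, the nuclear ATPase Morc3 at 0.496, the RNA polymerase-binding Scaf4 at 0.509 and Paxbp1 at 0.545. Mis18a, needed to mark centromeres, was at 0.468 times, the replication gene Donson at 0.590, N6amt1, a methyltransferase, at 0.615 and Urb1, a ribosome assembly gene, at 0.431. Setd4, a SET-domain gene with 3.73 ± 0.635 normalised reads in KO #1 and 8.71 ± 4.55 in Control (SD, n = 3 each), had few reads.

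The 7 genes of protein folding, ubiquitin and quality control had a median ratio of 0.564 in KO #1. The medians of the roles lie close to that of the stretch and are no result about a role. Cct8, a subunit of the CCT chaperonin that folds actin and tubulin, was the most highly read of the 53. It had 731, 743 and 753 normalised reads in KO #1, 1616, 1538 and 1587 in KO #2 and 1456, 1488 and 1439 in Control. Ltn1, the ubiquitin ligase that marks unfinished proteins on stalled ribosomes, had 154, 164 and 158 in KO #1, 307, 296 and 322 in KO #2 and 277, 286 and 280.1 in Control. In both genes the KO #1 libraries were the lowest and the KO #2 libraries the highest, with no overlap. Psmg1, a chaperone of proteasome assembly, was at 0.443 times Control in KO #1, the ubiquitin ligase Ttc3 at 0.692 and Rwdd2b at 0.501. Usp25, a deubiquitinase, was the least lowered gene of this set at 0.777 times.

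The 10 genes of metabolism and mitochondria had a median ratio of 0.542 in KO #1. Sod1, which removes superoxide in the cytosol, had 341, 355 and 339 normalised reads in KO #1, 814, 741 and 745 in KO #2 and 653, 663 and 632 in Control. Its KO #1 libraries were the lowest and its KO #2 libraries the highest. The mitochondrial ribosome genes Mrpl39 and Mrps6 were at 0.553 and 0.491 times Control, the biotin ligase Hlcs at 0.491 and the oxidoreductase-like Cryzl1 at 0.606. The carbonyl reductases Cbr1 and Cbr3 were at 0.664 and 0.317 times. The myo-inositol transporter Slc5a3 was at 0.653 times. Pigp, which acts in making membrane anchors, had 5.15, 14.0 and 13.2 normalised reads in KO #1 and 13.1, 11.8 and 15.7 in Control. These libraries overlapped.

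Gart and Son are shown together because they lie head to head, with 852 bases between their starts, yet stood at different ratios in KO #1. Gart codes for a trifunctional enzyme of purine synthesis and had 324, 317 and 296 normalised reads in KO #1, 717, 679 and 699 in KO #2 and 599, 590.1 and 609 in Control. Son codes for a splicing protein of nuclear speckles and had 693, 719 and 723 in KO #1, 1176, 1197 and 1218 in KO #2 and 1049, 997 and 1029 in Control. In both genes KO #1 was lowest and KO #2 highest with no overlap, and the ratios to Control were 0.521 for Gart and 0.694 for Son in KO #1, and 1.16 and 1.17 in KO #2. Their upstream bases (RefSeq, GRCm38.p6, CCAAT or ATTGG in capitals) lie at chr16:91646973-91647222 on the minus strand for Gart and at chr16:91647574-91647823 on the plus strand for Son.
Gart: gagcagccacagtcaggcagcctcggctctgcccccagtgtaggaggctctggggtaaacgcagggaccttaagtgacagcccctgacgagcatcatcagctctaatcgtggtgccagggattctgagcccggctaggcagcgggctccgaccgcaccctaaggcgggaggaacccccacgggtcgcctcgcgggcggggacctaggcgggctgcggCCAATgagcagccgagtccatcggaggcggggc
Son: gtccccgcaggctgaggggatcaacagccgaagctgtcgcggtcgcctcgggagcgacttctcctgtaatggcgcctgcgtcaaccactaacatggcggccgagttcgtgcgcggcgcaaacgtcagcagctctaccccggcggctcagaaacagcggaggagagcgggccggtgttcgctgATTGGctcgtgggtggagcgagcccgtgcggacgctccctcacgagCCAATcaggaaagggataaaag
The run of Gart held 1 match and that of Son held 2. Over the 43 genes of the stretch with a RefSeq promoter, CCAAT on either strand was found in 32.6% of windows of 300 bases, beside 39.4% of the windows of 7789 tested genes. GGGCGG, which can overlap other GC-rich motifs, was found in 69.8% beside 68.0%, CCGGAAG in 30.2% beside 22.2% and TATAAA in 2.33% beside 6.32%, each counted on both strands. In the stretch these were 30, 13 and 1 of the 43 windows, so a share there can turn on few genes. The median GC content was 67.3% beside 61.3%. A match of letters is a description and does not show binding.

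The 8 genes of membranes, trafficking and signalling in the stretch had a median ratio of 0.572 in KO #1. App, the amyloid precursor protein, had 362, 337 and 339 normalised reads in KO #1, 400.0, 477 and 454 in KO #2 and 493, 491 and 515 in Control. Its 3 groups did not overlap and stood in the order KO #1, KO #2, Control. Synj1, a phosphatase of membrane lipids, was at 0.473 times Control in KO #1, Dscr3, of a protein recycling complex, at 0.570 and Tmem50b at 0.574. Itsn1, a scaffold of endocytosis, was at 0.753 times. Dopey2 was at 0.654 times. D16Ertd472e, 1110004E09Rik and Smim11, which stood in no role list, were at 0.401, 0.554 and 0.594 times.

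Jam2, a junctional adhesion molecule, departed most. It had 1.03, 0 and 1.02 normalised reads in KO #1, 2.83, 5.89 and 5.90 in KO #2 and 41.9, 37.3 and 36.7 in Control. Both KO lines lay far below Control with no overlap. Over the group KO #1 held 2 reads and Control 121, so KO #1 was 57.4-fold lower, with a 95% counting interval of 15.5 to 479. Jam2 met the level filter through Control alone.

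**Figure D3:**
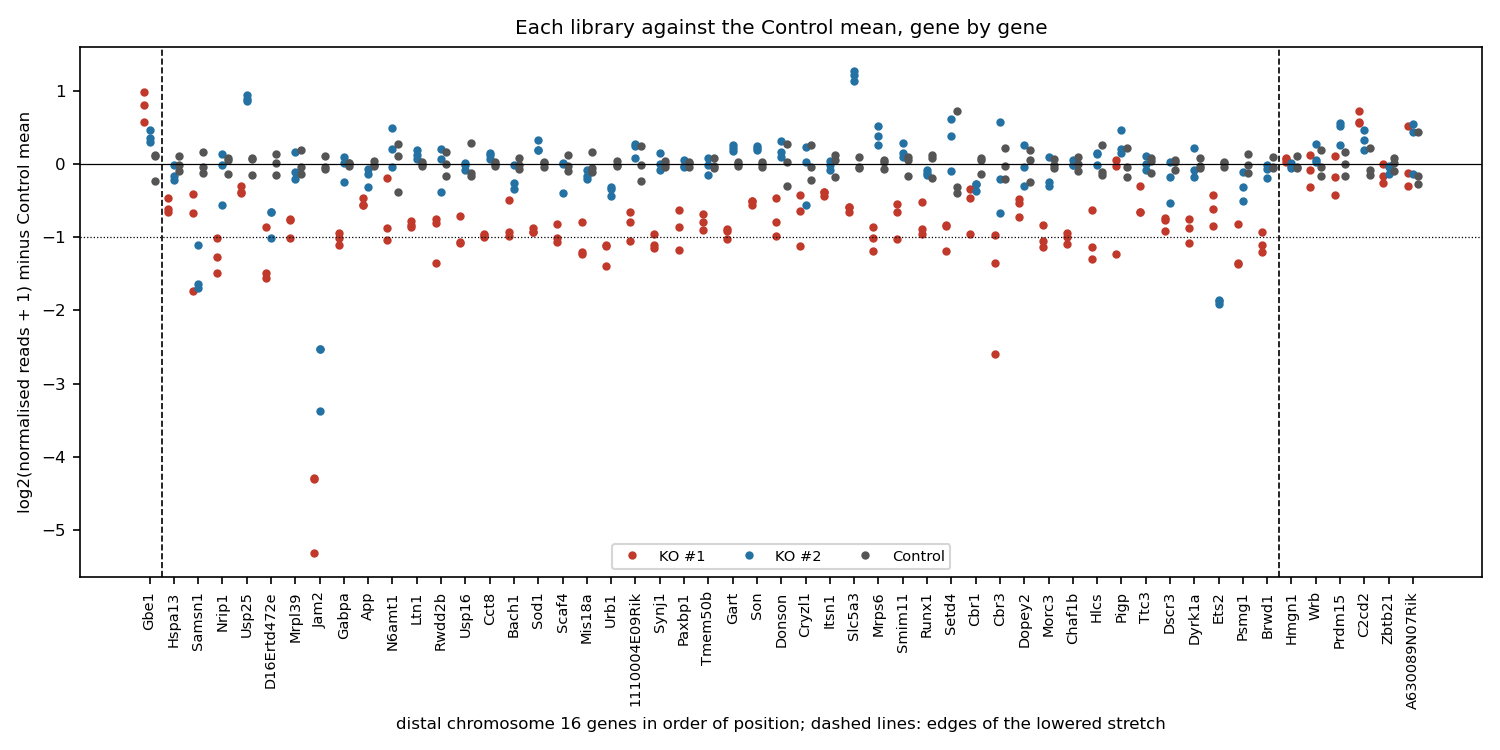
Log2 of normalised reads + 1 in each library minus the Control mean (vertical axis) for the 53 genes in order of position (horizontal axis), with KO #1, KO #2 and Control libraries side by side. Between the dashed lines the KO #1 points lie below 0, apart from 1 library in Pigp, and the KO #2 points scatter about 0 except in single genes such as Jam2, Ets2, Usp25 and Slc5a3.

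In KO #2 the same genes did not shift as a block. Of the 53, 6 fell, beside 11.8% of all tested genes that fell, Jam2 being 1 of the 6, and 7 rose, beside 10.7% that rose (limma, adjusted p under 0.05 over 9564 genes). The median log2 change was -0.021, beside -0.0087 over all tested genes. Every KO #2 library lay below every Control library for 7 genes, beside 18.1% of all tested genes, and above for 10, beside 16.4%. These counts lie near the background. The 46 genes of the stretch had a median ratio of 0.985, with quartiles of 0.910 and 1.12.

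The largest falls in KO #2 were in Jam2, Ets2 and Samsn1. Jam2 averaged 4.87 ± 1.77 normalised reads in KO #2 and 38.6 ± 2.82 in Control (SD, n = 3 each), with no overlap. Because it met the level filter through Control alone, it could only have been lower elsewhere, so its fall is a description and supports nothing. Ets2, an ETS-family transcription factor, had 100.01, 101 and 96.8 normalised reads in KO #2, against 357, 376 and 371 in Control, a log2 change of -1.88 ± 0.08 (SE, limma adjusted p = 1.11e-26). In KO #1 it had 205, 241 and 273, so the 3 groups did not overlap and KO #2 was the lowest. Samsn1, an adaptor protein of blood cells, had 22.6, 14.7 and 15.3 in KO #2, against 45.4, 56.0 and 48.3 in Control, a log2 change of -1.47 ± 0.24 (limma adjusted p = 2.1e-06). In KO #1 it had 37.1, 30.9 and 14.2, a range that takes in all 3 KO #2 libraries. Smaller falls were those of D16Ertd472e, at a log2 change of -0.78 ± 0.23 (limma adjusted p = 0.00726), Urb1, at -0.36 ± 0.11 (limma adjusted p = 0.0104), and App, at -0.17 ± 0.06 (limma adjusted p = 0.0303).

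The largest rises in KO #2 were in Slc5a3 and Usp25. Slc5a3 had 472, 456 and 429.6 normalised reads in KO #2, against 189, 209 and 188 in Control, a log2 change of 1.21 ± 0.08 (limma adjusted p = 5.95e-20). In KO #1 it had 129.9, 124 and 129, below Control. Usp25 had 665, 691 and 649 in KO #2, against 380.4, 323 and 375 in Control, a log2 change of 0.90 ± 0.06 (limma adjusted p = 1.77e-18). In KO #1 it had 275, 272 and 291. In both genes the 3 groups did not overlap.

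Mrps6 shares exons with Slc5a3 on the same strand, so the division of reads between them is uncertain. Mrps6 had 180.2, 165 and 151 normalised reads in KO #2, against 119.5, 131 and 128 in Control, a log2 change of 0.39 ± 0.11 (limma adjusted p = 0.00717). The others that rose were Sod1 by 0.24 ± 0.05 (limma adjusted p = 0.000316), Gart by 0.22 ± 0.05 (limma adjusted p = 0.00132), Son by 0.22 ± 0.04 (limma adjusted p = 2.96e-05) and Cct8 by 0.11 ± 0.04 (limma adjusted p = 0.0274) on the log2 scale. Of 20 alternative settings, App lost its call in 6, Cct8 in 7, Urb1 in 4, D16Ertd472e in 1 and Mrps6 in 1, while the 8 others kept theirs in all 20.

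**Figure D4:**
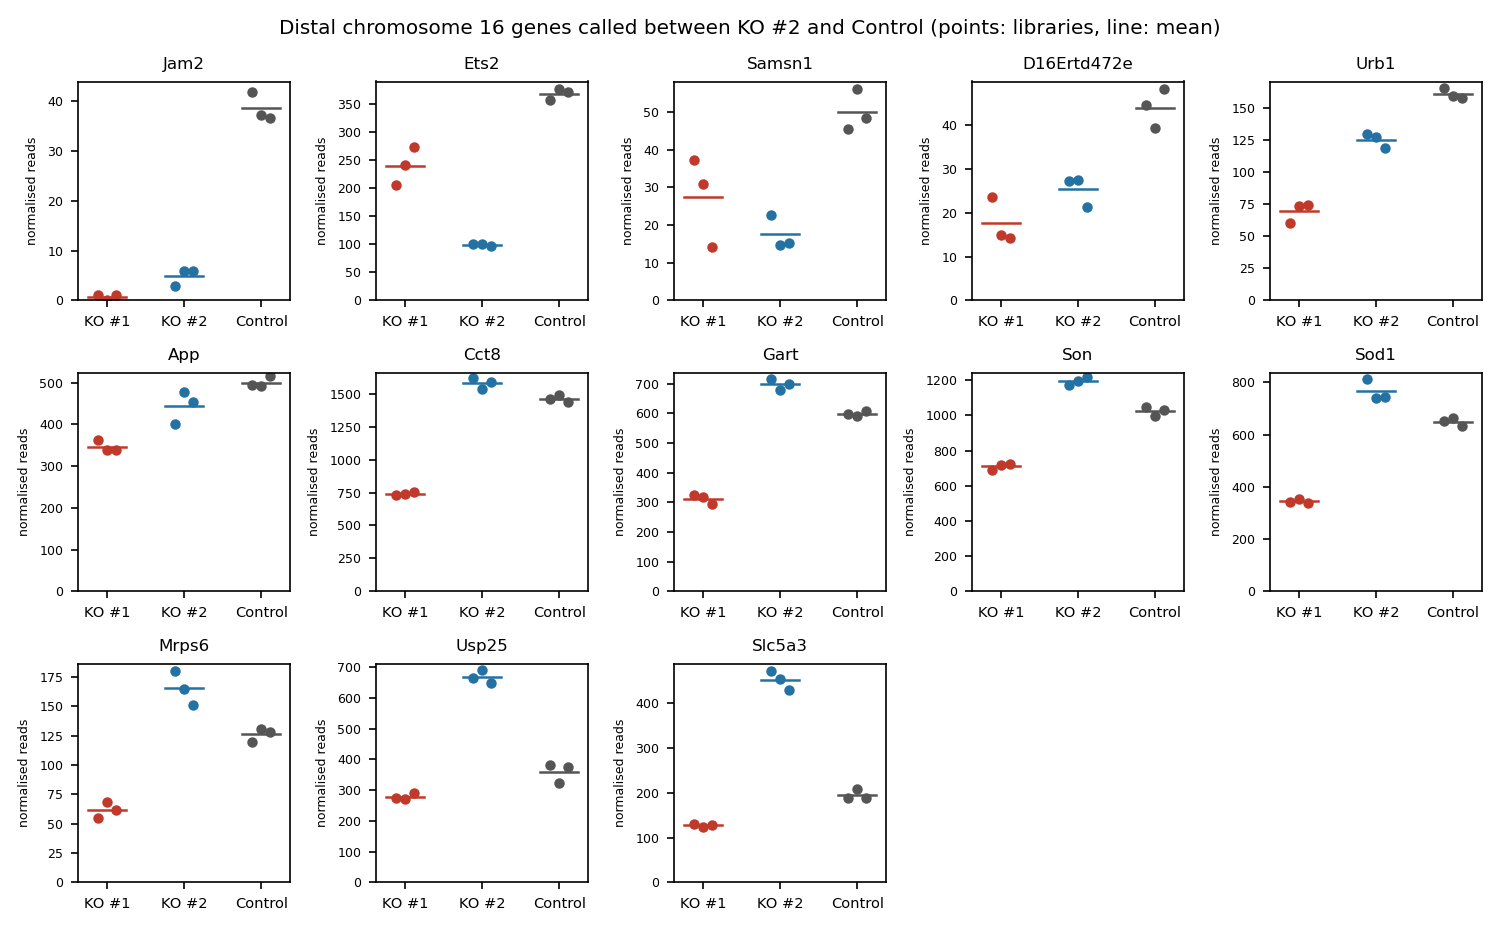
Normalised reads (vertical axes, starting at 0) of the 13 genes called between KO #2 and Control, with 3 libraries as points and their mean as a line for KO #1, KO #2 and Control, ordered from the largest fall to the largest rise in KO #2. Ets2 was lowest in KO #2, while Slc5a3 and Usp25 were highest in KO #2 and lowest in KO #1. Samsn1 had its lowest mean in KO #2, where its libraries overlapped those of KO #1.

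Genes on other chromosomes that work with the 53 were looked at in the same fit. Of 59 listed partners, 53 met the level filter. In KO #1, 6 of these fell, beside 10.2% of all tested genes, and 7 rose, beside 10.5% (20.8% in either direction). Their median log2 change was -0.017. In KO #2, 3 fell, beside 11.8% of all tested genes, and 15 rose, beside 10.7% (22.5% in either direction). Their median there was 0.056. The partner lists were chosen with earlier results of these data known, so these counts and those of each list below are a description.

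The other subunits of the CCT chaperonin stood near Control in KO #1. Of 7 tested subunits, 1 rose in KO #1, beside 10.5% of all tested genes that rose. It was Cct6a (log2 change 0.18 ± 0.05, limma adjusted p = 0.00279), and the others had log2 changes of -0.089 to 0.085 that did not pass the test. In KO #2, 6 of the 7 rose, beside 10.7% of all tested genes that rose. The rises reached 0.24 in Cct6a and were 0.20 in Cct2 and 0.15 in Cct3. Of 5 other genes of purine synthesis, the pathway of Gart, 3 fell in KO #1, beside 10.2% of all tested genes that fell. Adsl fell by 0.28, Ppat by 0.22 and Paics by 0.18 on the log2 scale. In KO #2, Atic rose by 0.14.

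Among genes that remove superoxide and peroxide, 1 fell and 1 rose in KO #1 out of 5 tested, beside 10.2% and 10.5% of all tested genes. In KO #2, 3 of them rose, beside 10.7% of all tested genes that rose. Cat, which codes for catalase, averaged 280.5 ± 7.0 normalised reads in KO #1, 414 ± 1.71 in KO #2 and 347 ± 7.62 in Control (SD, n = 3 each), a fall in KO #1 and a rise in KO #2. Gpx1, a glutathione peroxidase, rose in both, and Prdx1, a peroxiredoxin, rose in KO #2.

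Among genes that process App or resemble it, the App relative Aplp2 and the protease Adam10 rose in KO #1, by 0.35 and 0.21 on the log2 scale. In KO #2, Ncstn and Bace1 rose, by 0.38 and 0.57, and Psen2 fell by 0.44. Of 6 ribosome quality control partners of Ltn1, 2 rose in KO #2, beside 10.7% of all tested genes that rose. They were Nemf, by 0.44, and Hbs1l, by 0.24. The log2 changes of the 6 in KO #1 lay between -0.68 and 0.063 and did not pass the test. Nemf lies on chromosome 12, whose tested genes had a median log2 change of 0.28 in KO #2, and the part of that shift in its rise was not tested.

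In the remaining lists single genes were called, where 20.8% of all tested genes were called in KO #1 and 22.5% in KO #2. Among histone assembly genes Asf1b rose in KO #1 by 0.19 and Asf1a fell in KO #2 by 0.45. Gabpb2, of the RUNX and GABP partners, rose in KO #1 by 0.20, and the small MAF gene Mafk rose there by 0.48. Of the endocytic adaptors Itsn2 fell in KO #1 by 0.26 and Synj2 fell in KO #2 by 0.50. Itsn2 lies on chromosome 12 as well, whose median in KO #1 was -0.28, and the part of that shift in its fall was not tested. The 4 partners of Psmg1 in proteasome assembly had log2 changes of -0.046 to 0.060 in KO #1 and -0.11 to 0.21 in KO #2. The 2 relatives of Hmgn1 had changes of -0.069 and -0.059 in KO #1 and of -0.14 and -0.015 in KO #2. The 2 partners of Wrb had changes of -0.20 and 0.045 in KO #1 and of -0.014 and -0.0013 in KO #2. No member of these last lists passed the test, and their values do not show that they stayed the same.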

How the data were processed

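RAW264 RNA was made into stranded mRNA libraries and sequenced on an Illumina MiSeq, per the labels. Build mm10 and the tools edgeR 3.20.1, featureCounts 1.4.6, TopHat2 2.0.22 and Cufflinks 2.1.1 are taken from the submitters' processing notes, which do not give their roles. The main deposited table lists a signal per gene and library, reads that the authors scaled by 1 factor per library (TMM by its name), with exon length. All values (100%) were whole multiples of a step within 1e-06, so reads were recovered. FPKM values in the authors' tables of each pair of groups served as an alternative. Another 12 columns of per-sample values were not used.

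The test was limma-trend (limma 3.58.1, R 4.3.3) on log2(normalised reads + 1), 9 libraries in 1 fit, for genes at 10 or more in 3 libraries, with Benjamini-Hochberg adjustment over 9564 genes and a threshold of 0.05. Alternatives were other scalings and filters, a pseudocount of 0.1, edgeR 4.0.16, DESeq2 1.42.0, fits of 2 groups, a replicate block and leaving out each library. The procedure was tested on simulated data. The genes, role lists and partner lists were chosen with earlier results of these data known. The rule for named genes took every gene of the region by role, those called in KO #2, the genes on either side of the start and up to 3 called partners per list; it also allowed genes elsewhere on chromosome 16, which are not reported here. Partners beyond 3 in a list are counted only, and 1 partner is not reported here. Promoters are RefSeq sequences, matched by symbol or older symbol for 50 of the 53 genes (Hspa13, Jam2 and Rwdd2b unmatched). Counting intervals cover counting error only.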

Additional observations from a re-analysis of the deposited data

Results flagged for a closer look

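In 8 genes all 3 KO #1 libraries lay below all Control libraries and all 3 KO #2 libraries lay above them, so the 2 lines stood on opposite sides of Control. By the choice of the region, 44 of the 46 genes of the stretch lay below Control in this way in KO #1. In KO #2, 8 of the 46 lay above in this way, beside 16.4% of all tested genes. The count of 8 therefore lies near the background and is no result about these genes. The share of all tested genes on opposite sides is not given here. The log2 change was -0.36 in KO #1 and 0.90 in KO #2 for Usp25, and -0.61 in KO #1 and 1.21 in KO #2 for Slc5a3. For Mrps6, which shares exons with Slc5a3, it was -1.02 in KO #1 and 0.39 in KO #2. For Sod1 it was -0.91 in KO #1 and 0.24 in KO #2, for Gart -0.94 in KO #1 and 0.22 in KO #2, and for Son -0.53 in KO #1 and 0.22 in KO #2. For Cct8 it was -0.98 in KO #1 and 0.11 in KO #2, and for Ltn1 -0.82 in KO #1 and 0.13 in KO #2. The change of Ltn1 in KO #2 did not pass the test (limma adjusted p = 0.212). Of 20 alternative settings, Cct8 lost its KO #2 call in 7 and Mrps6 in 1. Both changes share the Control libraries, and no test of the difference between the lines is read here, because the genes were chosen on KO #1.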

How the results depend on the processing

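Leaving out 1 library at a time left 40 to 43 genes lower in KO #1 than in Control and 40 to 42 lower in KO #1 than in KO #2. It left 1 to 2 higher in KO #1 than in Control and 1 to 3 higher than in KO #2, with medians of -0.88 to -0.79 and -0.90 to -0.79. In KO #2 minus Control it left 4 to 6 lower and 5 to 8 higher, with a median of -0.026 to 0.016. The median, close to 0, changed sign without KO #2 replicate 1 (0.016), KO #2 replicate 3 (0.011), Control replicate 1 (0.0091) or Control replicate 3 (0.0098). It also changed sign with a filter of 1 in 1 library (0.0044), which tests more genes. That filter gave a median of -0.74 for KO #1 minus Control and -0.71 for KO #1 minus KO #2. Scaling by total count gave -0.86 and the FPKM tables -0.77 for KO #1 minus Control. DESeq2 called 1236 of all genes in KO #1 minus Control, against 1985 by limma, 1396 against 2152 in KO #2 minus Control and 1612 against 2533 in KO #1 minus KO #2. It left 1 of the 53 higher in KO #1 than in Control and 1 higher than in KO #2, 15 genes of chromosome 16 up to 70 Mb lower in KO #1 and 13 higher in KO #2 (24 and 20 by limma). The FPKM tables also left 1 of the 53 higher in KO #1 than in Control. The cause was not tested.

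The start of the stretch stayed at 75.755191 Mb in all settings tried on KO #1 minus Control, and was 76.290862 Mb in KO #1 minus KO #2. The end was 96.082428 Mb in all other settings and 96.157852 Mb with least squares. A replicate block gave 43 lower and 2 higher in KO #1 minus Control and changed no call of the 53 genes. Residuals of libraries with the same number had correlations of -0.017 to 0.028, below the 0.1 taken as a sign of pairing. Leaving the 9 named genes out of the search, an alternative chosen after seeing the data, moved neither edge. At this depth genes with few reads, such as Setd4, Pigp and Cbr3, carry wide errors.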
